A study of Mus musculus with 35 samples.

Results

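Day 25 was the last day sampled after deletion of *Dnmt1* in mouse embryonic stem cells (ESCs), and it is described here from its 4 samples, 2 WT and 2 *Dnmt1* KO, of 35 in the series. They were chosen by the day and genotype in the labels. Both genotypes came from 1 ESC line in which both *Dnmt1* alleles carry loxP sites, so that Cre recombinase, induced with 4-hydroxytamoxifen (tamoxifen, 4OHT), removes part of the gene. The labels call the WT samples control and Wildtype, and give E14 as the background, whereas the study's methods name C57BL/6 as the strain of this line. Whether the WT cultures received tamoxifen is not given in the sources used here. Cells were kept in serum with LIF, with or without feeder cells, and the labels do not tell which libraries had feeders. The samples are listed as biological replicates, but nothing says that they came from separate inductions, so p-values measure the spread between these samples. RNA was sequenced after removal of ribosomal RNA, and levels are RPKM (reads per kilobase of exon per mega-read of the library).

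DNMT1 copies CpG methylation onto the new strand after each DNA replication, and cells without it lose methylation as they divide. Methylation marks 1 parental allele of imprinted genes and keeps many germline genes silent in other cell types through their CpG-rich promoters. ESCs tolerate its loss while they self-renew, in a network held by factors such as NANOG, OCT4 (*Pou5f1*) and SOX2 and opposed by FGF-ERK signalling.

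The 4 libraries held 27.1 to 30.6 mega-reads, and 12.3 to 15.2 mega-reads of each fell in exons. Replicates had a Pearson r across 6034 expressed genes of 0.995 in WT and 0.995 in KO, and both pairs differed by more than sampling noise, with a chi-square of 3.31 and of 4.95 for each degree of freedom. The WT day 25 libraries stood apart from earlier WT. Their r was between 0.902 and 0.940 with WT day 17 and between 0.870 and 0.892 with WT day 11, whereas KO day 25 reached between 0.953 and 0.961 with WT day 17 and between 0.968 and 0.970 with KO day 17. Each library was centred on the median of those 6034 genes, which are the genes with a mean log2(RPKM + 0.1) of at least 2 at day 25. Differences are KO minus WT on the log2(RPKM + 0.1) scale unless stated, which understates the change of low genes. They were tested with limma over the 12 libraries of days 11, 17 and 25, and a gene was called at an adjusted p below 0.05 and a log2 difference of at least 1 in size. Each SE thus pools the spread of the replicate pairs of these days. Among those pairs, KO day 11 had the lowest r, 0.966.

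*Dnmt1* itself followed the labels. It lies on the minus strand of chromosome 9 (bases 20711650 to 20757317, build NCBIM37), and had 34.8 and 31.6 RPKM in the 2 WT libraries and 4.40 and 4.04 RPKM in the 2 KO libraries at day 25 (log2 difference -3.06 ± 0.18 (SE), limma adjusted p 1.7e-06). The groups did not overlap. The KO level was close to that of day 17 (4.25 and 4.20 RPKM), while the WT level had been 16.2 and 17.4 RPKM at day 17. RPKM counts the whole gene, so reads from exons that Cre leaves in place are included in the KO level.

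Of 11458 genes tested, 545 (4.76%) were called higher in KO and 1045 (9.12%) lower. Imprinted, X-linked, Y-linked and germline genes were among the largest rises, and *Grb10*, *Zfp609*, *Arid1a* and *Dnmt1* were the largest falls among genes with at least 5 RPKM in the higher group. At day 17 the same test called 568 genes higher (4.96%) and 95 lower (0.829%), and at day 11 338 (2.95%) and 82 (0.716%). The split depended on the scaling. Without centring 711 genes were higher and 845 lower, and with centring on all tested genes 716 and 841, so that the higher share of the calls went from 34.3% to 45.7% and 46%. The median of all tested genes moved with these scalings from 0.01 to 0.13 and 0.14. In the plot of selected genes by library, the replicates lie close together against the distance between genotypes.

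**Figure D1:**
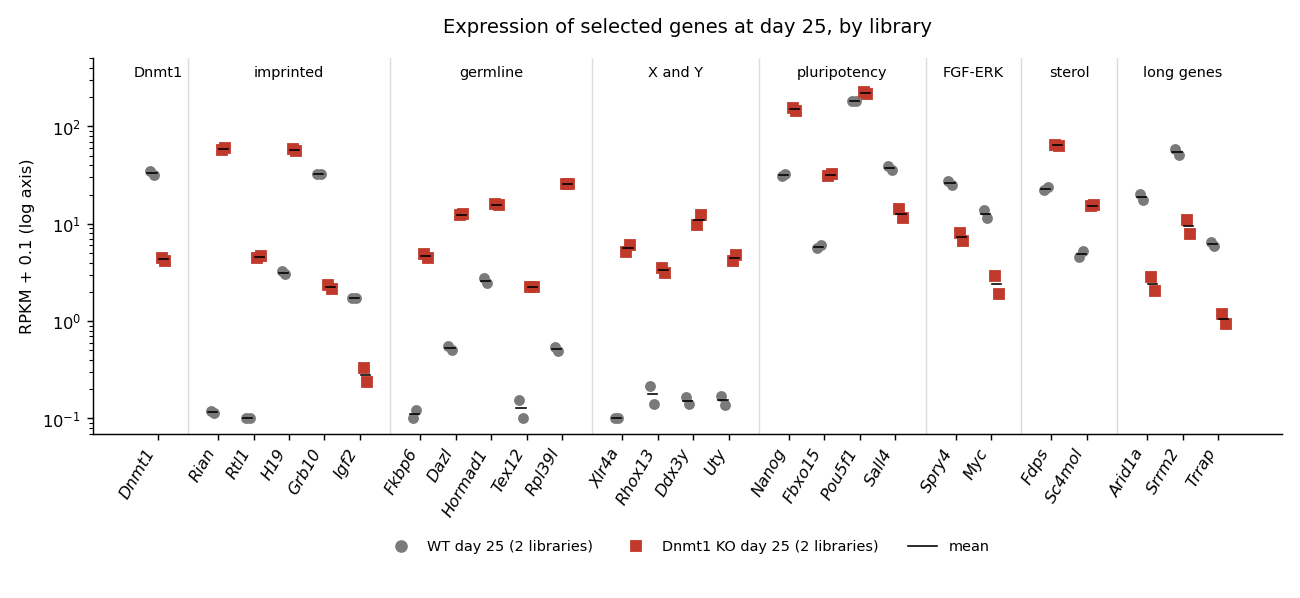
RPKM + 0.1 on a log axis for selected genes in each of the 4 day 25 libraries (grey circles, WT; red squares, *Dnmt1* KO; black bars, group means). *Dnmt1* sits near 33 RPKM in WT and near 4 in KO, *Rian* and *Rtl1* sit at the lower end of the axis in WT only, and *Pou5f1* differs by 0.14 on the log2 scale.

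Maternally expressed imprinted genes are silenced on the paternal allele. Of 17 listed, 13 were tested, and 4 were higher and 3 lower. Over all tested genes these shares were 4.76% and 9.12%. The median difference was 0.31, beside 0.01 over all tested genes. *Rian*, *Mirg* and *Meg3* were near 0 in WT and passed the filter on low values only through KO libraries above 1 RPKM. Their calls of higher were thus largely fixed by that filter. *Rian*, a non-coding RNA of the Dlk1-Dio3 domain on the plus strand of chromosome 12 (bases 110842155 to 110899919, build NCBIM37), had 0.0203 and 0.0135 RPKM in the 2 WT libraries and 57.2 and 59.6 RPKM in the 2 KO libraries (log2 difference 8.85 ± 0.19 (SE), limma adjusted p 1.5e-09). The ratio was 3423-fold (95% exact interval 1737 to 7929) per library read, from 8 WT and 28938 KO reads, an interval that covers counting error only. *Mirg*, a microRNA host transcript of the same domain, had 0 and 0.0116 RPKM in WT and 8.40 and 8.84 RPKM in KO, and *Meg3*, its long non-coding RNA, had 0.00368 and 0.00611 RPKM in WT and 2.67 and 2.24 RPKM in KO (log2 difference 6.25 and 4.48). *Rtl1*, the retrotransposon-derived gene that lies there in the opposite orientation, was listed at 0 in both WT libraries and had 4.33 and 4.59 RPKM in KO (log2 difference 5.39 ± 0.23 (SE), limma adjusted p 2.0e-07). It was at least 541-fold higher in KO per library read, counting the WT group at its floor of 3 reads. Whether counting used the strand of the reads is not given in the sources used here, so *Rtl1* reads cannot be told apart from those of its antisense transcript. In all 4 transcripts the KO libraries were above every WT library. With 2 libraries a side this is common, and the groups did not overlap in 9380 of 11458 tested genes.

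*H19*, the non-coding RNA next to *Igf2*, had 3.14 and 2.95 RPKM in WT and 58.3 and 56.2 RPKM in KO (log2 difference 4.07 ± 0.10 (SE), limma adjusted p 2.0e-09). Its KO level was far below that of day 17, when KO had 507 and 561 RPKM. *Igf2*, the growth factor gene expressed from the paternal allele, had 1.61 and 1.62 RPKM in WT and 0.226 and 0.137 RPKM in KO (log2 difference -2.74 ± 0.22 (SE), limma adjusted p 1.8e-05). Both genes of this pair thus differed between genotypes in opposite directions. *Cdkn1c* and *Phlda2*, maternally expressed growth restraints of the Kcnq1 domain, fell to 3.34 and 3.02 RPKM and 4.93 and 5.09 RPKM in KO, from 10.2 and 9.22 RPKM and 11.8 and 13.2 RPKM in WT (log2 difference -1.70 and -1.42). The largest fall of all genes with at least 5 RPKM in the higher group was that of *Grb10*, an adaptor of insulin and growth factor receptors, which had 32.1 and 32.7 RPKM in WT and 2.23 and 2.05 RPKM in KO (log2 difference -3.98 ± 0.09 (SE), limma adjusted p 1.5e-09).

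Of 32 paternally expressed imprinted genes listed, 21 were tested, and 4 were higher and 3 lower (median 0.11). Over all tested genes these shares were 4.76% and 9.12%. *Rtl1*, near 0 in WT, passed the filter only through KO libraries above 1 RPKM, which largely fixed its call. Besides *Rtl1*, *Peg12* had 0.467 and 0.279 RPKM in WT and 1.90 and 1.496 RPKM in KO (log2 difference 1.83). *Impact*, a regulator of translation under starvation, had 17.9 and 19.04 RPKM in WT and 42.2 and 41.8 RPKM in KO, and *Ddc*, the aromatic amino acid decarboxylase, had 2.14 and 1.99 RPKM in WT and 8.80 and 8.24 RPKM in KO (log2 difference 1.06 and 1.88). *Peg10*, a retrotransposon-derived gene of the placenta, had 65.0 and 65.8 RPKM in WT and 37.1 and 31.9 RPKM in KO (log2 difference -1.04 ± 0.32 (SE), limma adjusted p 0.019). Its call was lost without centring (log2 difference -0.93), and at day 17 the order was the other way round, with 35.0 and 56.5 RPKM in WT and 138 and 111 RPKM in KO. *Gab1*, a docking protein of receptor kinases, had 24.4 and 22.9 RPKM in WT and 4.61 and 4.51 RPKM in KO (log2 difference -2.47 ± 0.34 (SE), limma adjusted p 4.3e-04).

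All 6 Y-linked genes tested, of 9 listed, were higher in KO. A gene near 0 in WT was tested only where KO libraries exceeded 1 RPKM, which favours such calls. *Ddx3y*, an RNA helicase gene, had 0.0646 and 0.0397 RPKM in WT and 9.61 and 12.2 RPKM in KO, and *Eif2s3y*, a translation initiation factor gene, had 0.104 and 0.203 RPKM in WT and 15.2 and 16.7 RPKM in KO (log2 difference 6.06 and 5.89). *Uty*, a histone demethylase paralog, had 0.0693 and 0.0384 RPKM in WT and 4.07 and 4.66 RPKM in KO, and *Kdm5d* was listed at 0 in both WT libraries beside 1.49 and 1.39 RPKM in KO. The summed RPKM of the 9 listed Y-linked genes was between 0.282 and 0.330 in the WT libraries and between 34.2 and 39.3 in KO. At day 0 *Ddx3y* had been at 0.644 and 0.666 RPKM in WT and at 0.649 and 0.662 RPKM in KO. Against day 0, all 4 of the genes named here were lower in WT and higher in KO at day 25. The 6 tested genes were also all called higher in KO at days 11 and 17. The genotypes thus differed at day 25 in Y-linked RNA, and the part of this in the other differences was not tested. In bulk RNA, a change in the share of cells that carry a transcript and a change in its level per cell cannot be told apart.

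Many genes of germ cells were higher in KO. Of 14 tested genes for piRNA biogenesis and defence against transposons, 10 were higher and 0 lower (median 1.66). Of 19 genes for the meiotic chromosome axis and synapsis, 10 were higher and 0 lower (1.01), and of 12 testis paralogs of housekeeping genes 11 were higher and 0 lower (2.23). Over all tested genes these shares were 4.76% and 9.12%. The 3 lists held 24, 26 and 30 genes, and included some testis genes that are not of these classes, such as the cancer-testis gene *Fmr1nb*. Members near 0 in WT were tested only where KO libraries exceeded 1 RPKM, which favours calls of higher among them. Because germline promoters are CpG-rich and some are bound by E2F6 and by MGA with MAX, the 250 bases before the start of 4 genes that rose and carry an E-box are printed, and those of *Dazl*, which rose and has none. Sequences are from RefSeq (GRCm38.p6) on the gene's strand, and capitals mark CACGTG, an E-box, and TCCCGC or its reverse complement GCGGGA, a core of E2F sites.
Hormad1 (chr3:95559427-95559676, plus strand): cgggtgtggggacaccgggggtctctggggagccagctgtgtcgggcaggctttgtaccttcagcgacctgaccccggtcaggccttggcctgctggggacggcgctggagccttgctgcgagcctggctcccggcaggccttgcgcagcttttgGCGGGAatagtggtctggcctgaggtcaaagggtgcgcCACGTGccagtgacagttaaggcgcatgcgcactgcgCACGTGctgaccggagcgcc
Tex12 (chr9:50561269-50561518, minus strand): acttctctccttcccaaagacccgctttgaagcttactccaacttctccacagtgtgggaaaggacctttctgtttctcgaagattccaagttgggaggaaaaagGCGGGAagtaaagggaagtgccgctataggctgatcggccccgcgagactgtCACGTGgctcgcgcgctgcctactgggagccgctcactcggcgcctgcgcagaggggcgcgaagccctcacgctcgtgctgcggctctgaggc
Fkbp6 (chr5:135350045-135350294, minus strand): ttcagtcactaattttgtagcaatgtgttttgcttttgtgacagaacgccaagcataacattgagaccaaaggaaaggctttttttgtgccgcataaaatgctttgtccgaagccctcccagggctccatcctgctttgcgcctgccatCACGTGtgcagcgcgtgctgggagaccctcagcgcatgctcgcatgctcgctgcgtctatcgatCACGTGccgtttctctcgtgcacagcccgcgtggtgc
Sycp1 (chr3:102936101-102936350, minus strand): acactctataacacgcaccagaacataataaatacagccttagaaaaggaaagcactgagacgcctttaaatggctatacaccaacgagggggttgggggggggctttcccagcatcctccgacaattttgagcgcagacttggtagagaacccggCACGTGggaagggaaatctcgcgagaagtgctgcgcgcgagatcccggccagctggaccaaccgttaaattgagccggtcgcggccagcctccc
Dazl (chr17:50293621-50293870, minus strand): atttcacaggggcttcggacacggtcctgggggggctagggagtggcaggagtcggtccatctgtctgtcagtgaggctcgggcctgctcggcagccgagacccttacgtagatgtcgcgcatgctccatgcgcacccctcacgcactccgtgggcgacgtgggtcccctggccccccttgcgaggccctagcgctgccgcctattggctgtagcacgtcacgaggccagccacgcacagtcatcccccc

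A promoter window of 250 bases before to 50 after the start was found for 29 of the 31 germline genes that rose. CACGTG was in 9 of them (31%), beside 11% of the windows of all tested genes and 7.15% of all 32851 windows. TCCCGC on either strand was in 12 (41.4%), beside 37.3% of tested genes and 20% of all windows. Among 13 windows of the germline genes that were not called, 3 held CACGTG and 8 TCCCGC. The median number of CpGs was 16 in the windows of the genes that rose, 21 over all tested genes and 7 over all windows. Both motifs were searched on both strands, a pair of them can share an end base, and a match describes the sequence only.

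*Fkbp6*, a co-chaperone of the piRNA pathway, had 0 and 0.0213 RPKM in WT and 4.78 and 4.36 RPKM in KO (log2 difference 5.29 ± 0.28 (SE), limma adjusted p 1.1e-06). The ratio was 451-fold (95% exact interval 80.6 to 17865) per library read, from 1 WT and 477 KO reads. *Asz1*, a protein of the mitochondria-associated germ granule, had 0.0118 and 0.0130 RPKM in WT and 1.95 and 2.18 RPKM in KO (log2 difference 4.15). *Dazl*, an RNA-binding protein of germ cells, had 0.453 and 0.404 RPKM in WT and 12.1 and 12.6 RPKM in KO (log2 difference 4.44 ± 0.13 (SE), limma adjusted p 1.1e-08). At day 17 *Dazl* had 1.48 and 1.18 RPKM in WT and 5.91 and 6.40 RPKM in KO, so the KO libraries of day 25 were higher and the WT libraries lower than those of day 17. *Tex19.1*, which restrains retrotransposons, had 10.6 and 12.8 RPKM in WT and 68.3 and 67.0 RPKM in KO, and *Piwil2*, a PIWI protein, had 1.85 and 1.72 RPKM in WT and 6.06 and 5.84 RPKM in KO (log2 difference 2.41 and 1.57). *Mael* and *Ddx4*, both of the same pathway, were not called, with 7.37 and 7.44 RPKM in WT and 7.35 and 8.97 RPKM in KO and with 4.74 and 5.19 RPKM in WT and 4.35 and 4.44 RPKM in KO.

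Among meiotic genes, *Hormad1*, a protein of the chromosome axis, had 2.66 and 2.37 RPKM in the 2 WT libraries and 15.7 and 15.5 RPKM in the 2 KO libraries (log2 difference 2.47 ± 0.14 (SE), limma adjusted p 1.7e-06). *Tex12*, of the central element of the synaptonemal complex, had 0.0540 and 0 RPKM in WT and 2.12 and 2.17 RPKM in KO, and *Smc1b*, a meiotic cohesin, had 0.181 and 0.155 RPKM in WT and 2.00 and 2.12 RPKM in KO (log2 difference 4.06 and 2.89). *Sycp1* had 1.78 and 2.03 RPKM in WT and 3.89 and 4.93 RPKM in KO (log2 difference 1.05), and *Sycp3*, of the lateral element, was not called, with 2.74 and 2.62 RPKM in WT and 1.46 and 1.68 RPKM in KO. *Tex15* had 1.93 and 1.86 RPKM in WT and 7.94 and 14.4 RPKM in KO (log2 difference 2.32 ± 0.21 (SE), limma adjusted p 3.4e-05), but at day 17 it had 8.67 and 7.47 RPKM in WT and 8.34 and 8.62 RPKM in KO. For this gene it was WT that was lower at day 25, and the 2 KO libraries differed from each other.

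Testis genes, paralogs of housekeeping genes among them, included large rises. *Rpl39l*, a ribosomal protein paralog, had 0.441 and 0.399 RPKM in WT and 25.4 and 25.6 RPKM in KO (log2 difference 5.51 ± 0.17 (SE), limma adjusted p 1.6e-08), and *Cox7b2*, a paralog of a cytochrome oxidase subunit, had 0.430 and 0.680 RPKM in WT and 7.13 and 8.07 RPKM in KO (log2 difference 3.46). *Fmr1nb*, a cancer-testis gene, had 0.107 and 0.118 RPKM in WT and 12.6 and 14.1 RPKM in KO (log2 difference 5.86), and *Usp26*, an X-linked deubiquitinase of the testis, had 0.0403 and 0.178 RPKM in WT and 4.64 and 4.91 RPKM in KO (log2 difference 4.51). Of the X-linked families, 7 of 7 tested Xlr genes and 5 of 5 tested Rhox homeobox genes were higher (medians 3.70 and 2.86). The lists held 14 Xlr and 13 Rhox genes. Members near 0 in WT were tested only where KO libraries exceeded 1 RPKM, so their calls were largely fixed by that filter. *Xlr4a* was listed at 0 in both WT libraries and had 5.03 and 5.95 RPKM in KO, and *Xlr3a* had 0 and 0.00911 RPKM in WT and 4.34 and 4.46 RPKM in KO. *Rhox13* had 0.114 and 0.0421 RPKM in WT and 3.46 and 3.02 RPKM in KO and *Rhox6* 0.560 and 0.803 RPKM in WT and 5.92 and 6.01 RPKM in KO (log2 difference 4.14 and 2.86). Members of these families share sequence, and reads of low mapping quality had been discarded, so their counts are uncertain.

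The other rises among the 15 largest with at least 5 RPKM were *Efhc2* (0.196 and 0.159 RPKM in WT and 14.04 and 14.04 RPKM in KO), *Pnma5* (0.0534 and 0.0828 RPKM in WT and 6.19 and 5.52 RPKM in KO) and *Nxf3* (0.142 and 0.314 RPKM in WT and 6.07 and 5.50 RPKM in KO), all on the X chromosome, *Smtnl1* (0.0945 and 0.230 RPKM in WT and 4.88 and 5.24 RPKM in KO), and *AI662270* (0.335 and 0.248 RPKM in WT and 5.48 and 4.82 RPKM in KO). Their log2 differences were 5.56, 5.03, 4.10, 4.23 and 3.63. Genes of the 2-cell embryo were low in both genotypes. Of 9 tested, 7 were higher (median 1.404), and *Zscan4d*, a telomere-protecting gene of that stage, was listed at 0 in WT and had 0.523 and 0.688 RPKM in KO. These levels were below those of KO day 17, when *Zscan4d* had 3.23 and 3.55 RPKM. With a pseudocount of 1 in place of 0.1, 0 of the 9 were called. In that setting 7 piRNA, 5 meiotic, 8 testis, 5 Xlr, 3 Rhox and 6 Y-linked genes were called higher.

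**Figure D2:**
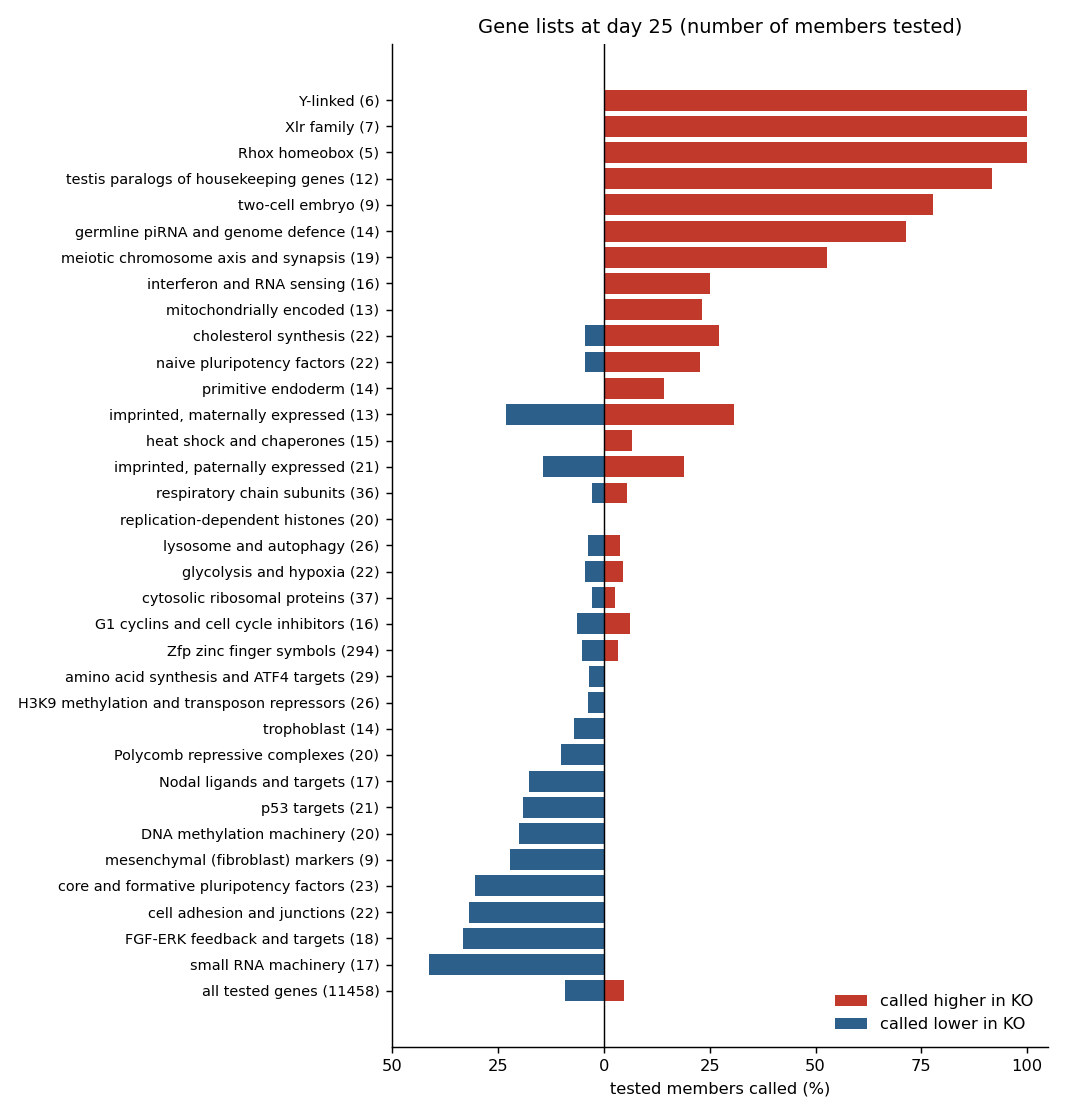
Share of tested members called higher (red, to the right) or lower (blue, to the left) in *Dnmt1* KO at day 25, for the lists with at least 5 tested members, with the number tested in parentheses. All tested Xlr (7 of 14 listed), Rhox (5 of 13) and Y-linked genes (6 of 9) were called higher. Members almost silent in WT were tested only where KO libraries exceeded 1 RPKM. The full shares of these lists were thus largely fixed by that filter and are not comparable with those of all tested genes. The filter also favours calls of higher in the other lists with such members. Small RNA machinery had the largest share of falls, and 4.76% and 9.12% of all tested genes were called higher and lower.

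Of 22 naive pluripotency factors, all of which passed the filter on low values, 5 were higher and 1 lower (median 0.24). The shares over all tested genes, 4.76% higher and 9.12% lower, stand beside this and every day 25 list count below. *Nanog* had 30.7 and 32.7 RPKM in the 2 WT libraries and 155 and 144 RPKM in the 2 KO libraries (log2 difference 2.12 ± 0.11 (SE), limma adjusted p 9.7e-07). *Fbxo15*, an ESC-specific F-box protein, had 5.51 and 5.95 RPKM in WT and 30.7 and 32.2 RPKM in KO, and *Tcl1*, an AKT co-activator, had 1.197 and 1.27 RPKM in WT and 5.22 and 5.07 RPKM in KO (log2 difference 2.32 and 1.86). *Prdm14*, a repressor of differentiation, had 0.636 and 0.546 RPKM in WT and 2.76 and 2.47 RPKM in KO, and *Dppa3* (Stella) had 8.51 and 10.4 RPKM in WT and 21.3 and 21.1 RPKM in KO (log2 difference 1.86 and 1.04). *Klf5* was the 1 that fell, with 28.5 and 26.5 RPKM in WT and 12.7 and 10.9 RPKM in KO (log2 difference -1.33). For *Nanog* the WT level of day 17 was 69.9 and 67.4 RPKM and the KO level 158 and 169 RPKM, so between these days the WT libraries moved further than the KO libraries.

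The core factors differed little. *Pou5f1* had 184 and 183 RPKM in WT and 225 and 214 RPKM in KO (log2 difference 0.14 ± 0.10 (SE), limma adjusted p 0.27), and *Sox2* had 46.1 and 44.1 RPKM in WT and 56.9 and 57.9 RPKM in KO (log2 difference 0.23 ± 0.08 (SE), limma adjusted p 0.027), which passed the p threshold but not the fold. Of 23 core and formative factors, 0 were higher and 7 lower (median -0.44). *Sall4*, a zinc finger partner of OCT4, had 38.9 and 35.7 RPKM in WT and 13.99 and 11.3 RPKM in KO (log2 difference -1.68 ± 0.38 (SE), limma adjusted p 0.0046), *Utf1* had 39.8 and 36.1 RPKM in WT and 18.8 and 19.6 RPKM in KO and *L1td1* had 71.4 and 65.4 RPKM in WT and 36.8 and 35.9 RPKM in KO (log2 difference -1.09 and -1.03). *Tcf7l1*, the repressor that damps WNT targets in ESCs, had 3.17 and 2.43 RPKM in WT and 0.647 and 0.422 RPKM in KO (log2 difference -2.32).

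Of 20 genes of the DNA methylation machinery, 4 fell and 0 rose (median -0.18), *Dnmt1* among them. *Dnmt3b*, a de novo methyltransferase, had 47.4 and 46.5 RPKM in WT and 20.7 and 21.1 RPKM in KO, and the methylcytosine dioxygenases *Tet1* and *Tet3* had 55.9 and 52.6 RPKM in WT and 27.9 and 27.4 RPKM in KO and 1.38 and 1.31 RPKM in WT and 0.30 and 0.244 RPKM in KO (log2 difference -1.28, -1.09 and -2.08). *Uhrf1*, which recruits DNMT1 to hemimethylated DNA, was not called, with 38.7 and 37.4 RPKM in WT and 51.4 and 44.8 RPKM in KO. Targets and brakes of FGF-ERK signalling fell in 6 of 18 tested genes and rose in 0 (median -0.64). *Spry4*, a feedback inhibitor, had 27.4 and 25.14 RPKM in the 2 WT libraries and 8.01 and 6.54 RPKM in the 2 KO libraries (log2 difference -1.96 ± 0.36 (SE), limma adjusted p 0.0018), and *Spred2*, another, had 9.17 and 7.90 RPKM in WT and 2.45 and 1.99 RPKM in KO (log2 difference -2.02). *Myc* had 13.6 and 11.4 RPKM in WT and 2.83 and 1.81 RPKM in KO and *Egr1*, an immediate early gene, had 1.35 and 1.37 RPKM in WT and 0.303 and 0.295 RPKM in KO (log2 difference -2.53 and -1.99). Of 17 Nodal pathway genes, 3 fell, among them *Smad3* (1.60 and 1.60 RPKM in WT and 0.521 and 0.571 RPKM in KO) and the inhibitor *Smad7* (9.96 and 9.099 RPKM in WT and 4.64 and 4.29 RPKM in KO).

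*Arid1a*, a subunit of the BAF chromatin remodeller, had 19.9 and 17.4 RPKM in the 2 WT libraries and 2.72 and 1.94 RPKM in the 2 KO libraries (log2 difference -3.08 ± 0.51 (SE), limma adjusted p 0.001). *Zfp609* had 5.61 and 4.91 RPKM in WT and 0.611 and 0.370 RPKM in KO, and *Trrap*, a scaffold of histone acetyltransferase complexes, had 6.44 and 5.78 RPKM in WT and 1.08 and 0.829 RPKM in KO (log2 difference -3.33 and -2.68). *Wbp7*, a histone H3K4 methyltransferase, had 6.04 and 5.64 RPKM in WT and 0.945 and 0.840 RPKM in KO (log2 difference -2.70). The WT values of the first 3 at day 25 lay above those of WT day 17, when *Arid1a* had 3.55 and 5.21 RPKM, *Zfp609* 0.703 and 1.22 RPKM and *Trrap* 1.11 and 1.496 RPKM. The other 9 of the 15 largest falls, beside *Grb10* and *Dnmt1*, were *Prrc2a*, *Prrc2b*, *Ptprf*, *Hspg2*, *Ubr4*, *Ahdc1*, *Zyx*, *Pom121* and *Srrm2*, with log2 differences from -3.06 in *Prrc2a* to -2.65 in *Srrm2*. In each of these 9, too, WT day 25 lay above WT day 17. The falls were picked for high WT against KO at day 25, which favours this. Over all tested genes, 8.73% were called higher in WT day 25 than in the mean of WT days 11 and 17. *Srrm2* had 9.49 and 16.2 RPKM in WT at day 17 and 58.0 and 50.4 RPKM at day 25.

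In RPKM, the largest falls included those of *Malat1*, a nuclear non-coding RNA (331 and 323 RPKM in WT and 91.7 and 96.2 RPKM in KO), *Pabpc1*, the cytoplasmic poly(A)-binding protein (137 and 134 RPKM in WT and 47.5 and 40.2 RPKM in KO), and *Pcbp2*, a poly(C)-binding protein (95.4 and 93.6 RPKM in WT and 33.4 and 31.0 RPKM in KO). *Igf2bp1*, *Srrm2*, *Slc38a2*, *Ddx3x*, *Ddx21* and *Pim1* were also among them, with log2 differences of -1.57, -2.65, -1.43, -1.02, -1.55 and -1.38. Of 17 tested genes of the small RNA machinery 7 fell and 0 rose (median -0.76). *Eif2c2*, which encodes AGO2, had 15.7 and 14.4 RPKM in WT and 3.42 and 2.70 RPKM in KO (log2 difference -2.39 ± 0.45 (SE), limma adjusted p 0.002), and *Drosha*, the nuclease that cuts primary microRNAs, had 26.0 and 22.0 RPKM in WT and 8.71 and 7.85 RPKM in KO (log2 difference -1.64). *Tnrc6b*, an AGO partner, and *Adar*, the RNA editor, had log2 differences of -1.33 and -1.44. WT at day 17 had 3.95 and 7.44 RPKM of *Eif2c2* and 8.16 and 9.94 RPKM of *Drosha*, so KO day 25 lay below WT day 17 in *Eif2c2* and overlapped its range in *Drosha*.

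Genes of cell adhesion fell in 7 of 22 tested and rose in 0 (median -0.65). *Cdh1*, E-cadherin, had 55.5 and 51.9 RPKM in WT and 29.95 and 26.9 RPKM in KO (log2 difference -1.03), *Dsp*, desmoplakin, had 1.79 and 1.70 RPKM in WT and 0.597 and 0.529 RPKM in KO (log2 difference -1.60) and *Itga3*, an integrin chain, had 9.76 and 8.83 RPKM in WT and 3.96 and 3.64 RPKM in KO (log2 difference -1.39). Of 21 p53 targets, 4 fell and 0 rose (median -0.28), led by *Zmat3* (19.3 and 18.7 RPKM in WT and 4.96 and 4.31 RPKM in KO). *Mdm2*, the ubiquitin ligase of p53, had 25.09 and 24.0 RPKM in WT and 12.6 and 13.0 RPKM in KO, and *Sesn2*, a stress sensor, had 14.9 and 14.4 RPKM in WT and 5.79 and 5.18 RPKM in KO (log2 difference -1.05 and -1.52). At day 17, 9 p53 targets had been called higher in KO and 0 lower.

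Cholesterol synthesis rose in 6 of 22 tested genes and fell in 1 (median 0.58). *Fdps*, farnesyl diphosphate synthase, had 22.1 and 23.6 RPKM in the 2 WT libraries and 64.6 and 63.5 RPKM in the 2 KO libraries (log2 difference 1.36 ± 0.10 (SE), limma adjusted p 1.1e-05). *Sc4mol*, a sterol demethylation enzyme, had 4.50 and 5.18 RPKM in WT and 15.1 and 15.4 RPKM in KO, and *Insig1*, a sterol-regulated brake on the pathway, had 9.41 and 8.74 RPKM in WT and 24.95 and 24.5 RPKM in KO (log2 difference 1.52 and 1.32). *Cyp51*, *Fdft1* and *Ebp* had log2 differences of 1.102, 1.12 and 1.05. WT at day 17 had 70.0 and 57.5 RPKM of *Fdps*, and KO day 25 lay between these 2 values.

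Of 16 tested genes of interferon response and antigen presentation, 4 were higher and 0 lower (median 0.49). The class I chains *H2-K1* and *H2-D1* had 3.72 and 3.45 RPKM in WT and 9.96 and 8.86 RPKM in KO and 1.54 and 1.94 RPKM in WT and 5.27 and 4.61 RPKM in KO, and the membrane proteins *Ifitm1* and *Ifitm2* had 5.996 and 6.70 RPKM in WT and 15.6 and 14.9 RPKM in KO and 41.3 and 43.5 RPKM in WT and 112 and 101 RPKM in KO. Their log2 differences lay between 1.13 in *Ifitm1* and 1.34 in *H2-D1*. The 10 largest rises in RPKM included genes of mitochondrial DNA and ribosomal protein genes, as well as *Nanog*. *mt-Nd3*, a complex I subunit encoded by mitochondrial DNA, had 226 and 240.3 RPKM in WT and 692 and 643 RPKM in KO (log2 difference 1.399 ± 0.15 (SE), limma adjusted p 8.7e-05), and *mt-Co1* and *mt-Co3*, subunits of complex IV, had log2 differences of 1.02 and 1.17. *Rps7* and *Rpl7*, ribosomal proteins, had 286 and 329 RPKM in WT and 693 and 715 RPKM in KO and 264 and 288 RPKM in WT and 621 and 680.4 RPKM in KO (log2 difference 1.08 and 1.12). *Cox4i1*, *Calm2*, *Fabp3* and *Gpx4* were in the same set, with log2 differences of 1.05, 1.81, 1.80 and 1.06. As whole groups they moved less: 1 of 37 cytosolic ribosomal protein genes rose and 1 fell (median 0.48), and 3 of 13 genes of mitochondrial DNA rose and 0 fell (median 0.55). Of 36 respiratory chain subunits encoded in the nucleus 2 rose and 1 fell.

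Other lists had shares of calls near or below those of all tested genes, 4.76% higher and 9.12% lower. Of 26 genes of H3K9 methylation and transposon repression, 0 rose and 1 fell, and of 20 Polycomb genes 0 rose and 2 fell. Of 29 genes of amino acid synthesis and ATF4 response 1 fell, of 22 genes of glycolysis and hypoxia 1 rose and 1 fell, and of 20 replication-dependent histones 0 were called. The median of these histones was 0.39, with 19 of 20 above 0, beside 5839 of 11458 over all tested genes. Their summed RPKM was between 1877 and 2072 in WT and between 3016 and 3099 in KO. The histones had a median exon length of 579.5 bases, and the shortest eighth of all expressed genes had a median difference of 0.38. After a trend on exon length and GC was removed, the histone median was 0.18. With WT day 17 as control it was -0.52. Of 294 tested genes with Zfp symbols, 10 rose and 15 fell. Without centring, *Tet1*, *Peg10*, *Utf1*, *L1td1*, *Spry2*, *Ddx3x*, *Mdm2*, *Cdh1* and *Nes* were among the named genes no longer called.

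Markers of other cell types were mostly low or level. Trophoblast genes were called lower in 1 of 14 tested (*Peg10*) and higher in 0 (median 0.25). At day 17, 10 of the 14 had been higher in KO. *Krt8*, a simple keratin, had 26.3 and 26.9 RPKM in WT and 27.3 and 26.2 RPKM in KO at day 25. Its day 17 levels were 32.6 and 28.0 RPKM in WT and 142 and 154 RPKM in KO. Likewise *Krt18*, its partner, had 15.9 and 14.7 RPKM in WT and 18.6 and 17.06 RPKM in KO at day 25 and 36.2 and 29.9 RPKM in WT and 142 and 140.3 RPKM in KO at the earlier day. KO levels of both keratins were thus lower at day 25 than at day 17, and at day 25 the genotypes overlapped in *Krt8* and not in *Krt18*, for which the test made no call. Of 14 primitive endoderm genes, 2 were higher, and of 3 neural genes *Tubb3* was higher (5.61 and 5.60 RPKM in WT and 21.9 and 18.8 RPKM in KO) and *Nes* lower (3.76 and 3.22 RPKM in WT and 1.74 and 1.64 RPKM in KO). Mesenchymal markers, which feeder fibroblasts would bring, fell in 2 of 9 tested, *Fn1* (27.4 and 24.2 RPKM in WT and 7.36 and 5.87 RPKM in KO) and *Thbs1* (2.89 and 2.91 RPKM in WT and 0.531 and 0.521 RPKM in KO). Their summed RPKM over 26 genes was between 87.6 and 89.2 in WT and between 78.2 and 80.3 in KO, and the fibroblast collagen *Col1a1* was at most 0.112 RPKM in the 4 libraries.

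WT day 25 differed from earlier WT libraries in many genes. Against the mean of WT days 11 and 17, WT day 25 had 1000 genes called higher (8.73%) and 554 lower (4.84%), and KO day 25 against its own earlier days had 128 (1.12%) and 360 (3.14%). The KO minus WT difference itself was called higher at day 25 than at days 11 and 17 in 534 genes (4.66%) and lower in 1355 (11.8%). With WT day 17 put in the place of WT day 25, an alternative of unmatched days chosen after seeing the data, KO day 25 had 496 genes called higher and 200 lower. Gene groups differed in this respect. With WT day 17, all 7 Xlr genes, 6 Y-linked genes, 8 piRNA pathway genes, 9 meiotic genes and 8 testis paralogs were called higher. So were 3 of 5 Rhox genes and 5 naive factors, while 1 meiotic gene and 1 testis paralog were called lower. The naive factors were not all those called before, since *Dppa3* turned direction here. By contrast, 0 cholesterol genes, 0 respiratory chain subunits and 0 ribosomal protein genes were called in either direction, and the falls went from 7 to 0 in small RNA machinery, from 7 to 1 in core and formative factors, from 7 to 0 in adhesion, from 4 to 0 in p53 targets and from 6 to 2 in FGF-ERK genes. In the same comparison 3 p53 targets, 2 FGF-ERK genes, 1 small RNA gene and 1 adhesion gene were called higher. The median of the p53 targets turned from -0.28 to 0.46. The plot of 12 genes at days 17 and 25 shows both kinds.

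**Figure D3:**
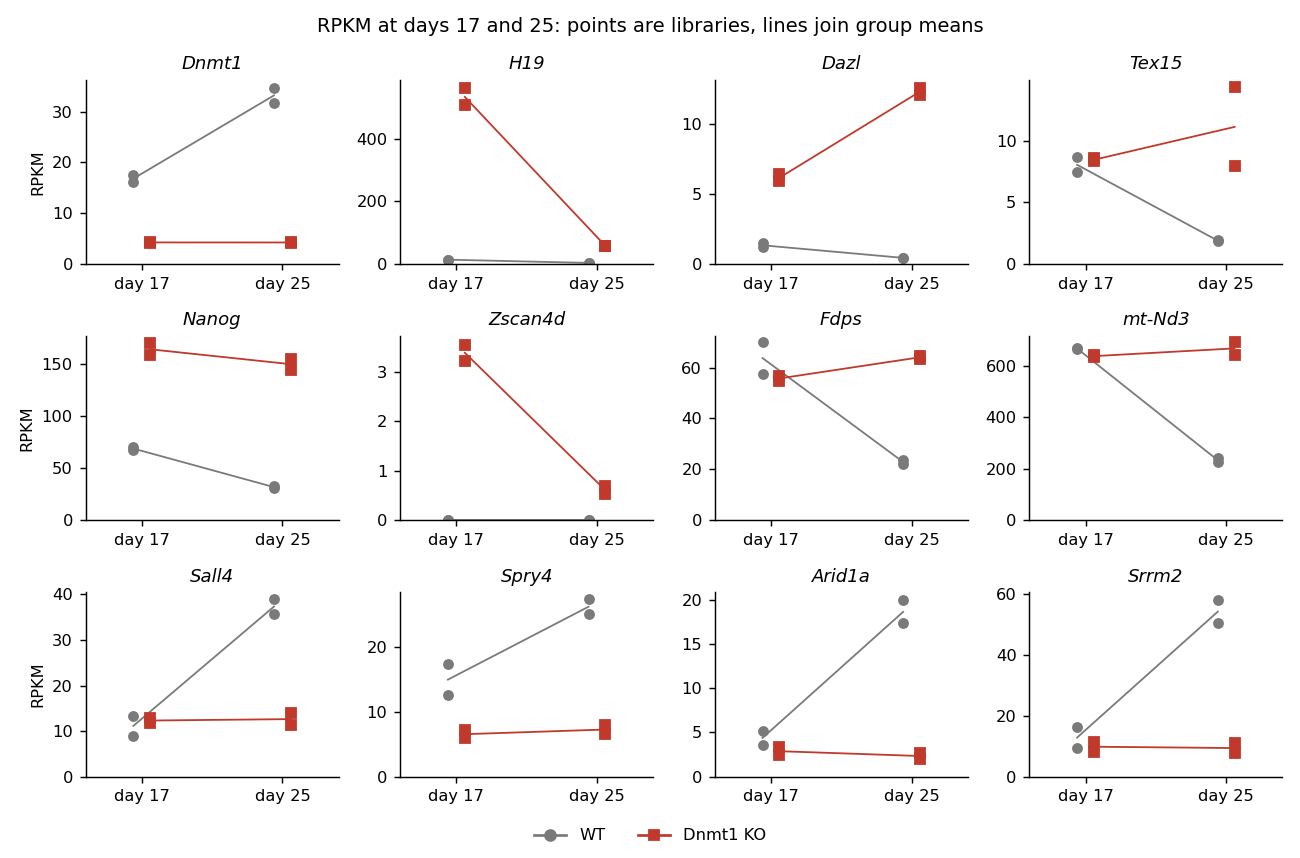
RPKM of 12 genes at days 17 and 25 (points, libraries; lines, join of the group means; grey circles, WT; red squares, *Dnmt1* KO). *Dazl* rose and *H19* and *Zscan4d* fell in KO between these days, whereas *Fdps*, *mt-Nd3*, *Sall4*, *Arid1a* and *Srrm2* moved further between these days in WT than in KO.

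Exon length moved with these differences. Over 6025 expressed genes with a known length, the median KO minus WT difference at day 25 went from 0.38 in the shortest eighth to -0.22 in the longest, and from -0.12 to -0.06 at day 17. Spearman's rho across genes between exon length and each library's deviation from the mean of the 12 libraries was 0.35 and 0.32 in WT day 25 and -0.15 and -0.15 in KO day 25, which describes the libraries, since genes are not replicates. Genes called higher had a median exon length of 1981 bases and an exon GC content of 48.0%, genes called lower 4923 bases and 52.8%, and the rest 3342 bases and 49.3%. After a smooth trend on exon length and GC was removed from each library, an alternative chosen after seeing the data, 498 genes were higher and 856 lower, of which 379 and 700 were among those called before. The germline genes called higher then were 10, 8 and 9 in the piRNA, meiotic and testis lists, with 1 meiotic gene called lower and a meiotic median of 0.63, and the falls were 3 in small RNA machinery, 4 in adhesion and 6 in FGF-ERK genes. *mt-Nd3*, *mt-Co1*, *mt-Co3*, *Cox4i1*, *Rpl7* and *Rps7* then had differences of 0.47, 0.40, 0.40, 0.81, 0.91 and 0.74 and were no longer called. Of the 13 genes of mitochondrial DNA, 0 were then higher and 2 lower, and their median turned from 0.55 to -0.35.

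**Figure D4:**
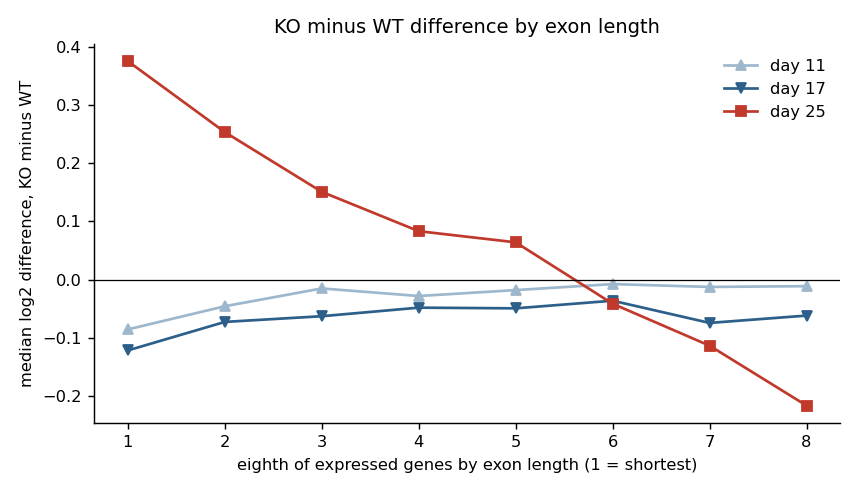
Median KO minus WT log2 difference of expressed genes in eighths of exon length, at days 11, 17 and 25. The day 25 line falls from 0.38 in the shortest to -0.22 in the longest eighth, while the lines of days 11 and 17 run from -0.09 to -0.01 and from -0.12 to -0.06.

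Differences also varied by chromosome. The median difference of the expressed genes was 0.47 on chromosome 1 (355 genes) and 0.33 on chromosome 8 (371 genes), against 0.08 over all 6034, and the other autosomes lay between -0.05 and 0.19. Each KO library showed it on its own, with 0.46 and 0.46 on chromosome 1 and 0.32 and 0.30 on chromosome 8 against the WT mean. At day 17 the medians were -0.04 on chromosome 1 and -0.07 on chromosome 8. Against their own earlier days, KO genes had medians of 0.40 and 0.31 on these chromosomes, and WT genes -0.04 and 0.02. The medians were 0.43 and 0.27 after the length and GC trend was removed. Of the expressed genes of chromosome 1, 7.89% were called higher and 2.82% lower, and of chromosome 8 3.77% and 3.77%. *Rpl7*, *Prdm14* and *Fn1* lie on chromosome 1, and *Cox4i1*, *Sc4mol*, *Tex15*, *Tubb3*, *Gab1* and *Cdh1* on chromosome 8. The X chromosome had a median of 0.13 and the 13 genes of mitochondrial DNA one of 0.55. No test was run on chromosomes, and DNA content was not measured.

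**Figure D5:**
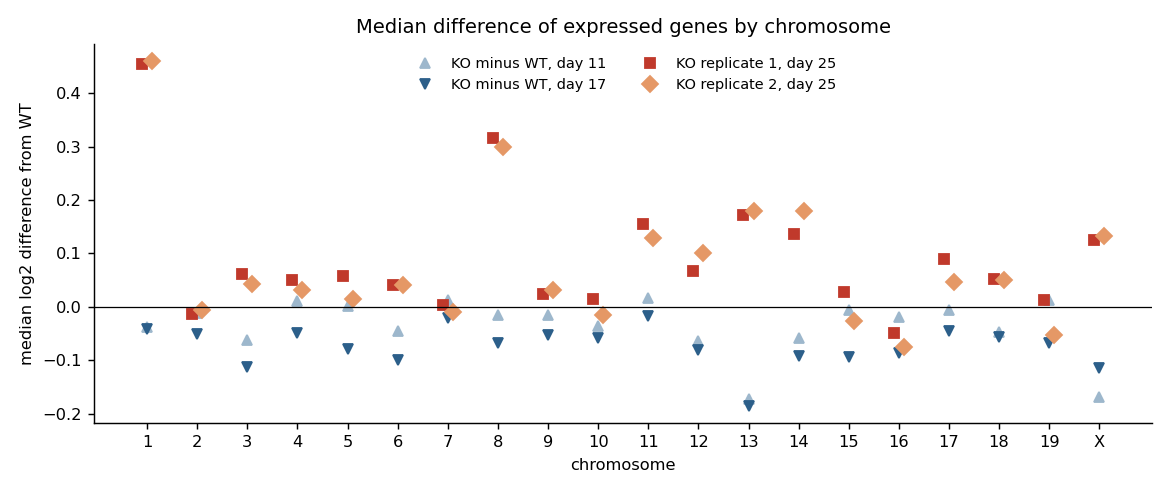
Median log2 difference from WT of expressed genes on each autosome and the X chromosome, for each KO library of day 25 against the WT mean (squares and diamonds) and for KO minus WT at days 11 and 17 (triangles). Chromosomes 1 and 8 stand above the other autosomes and the X in both day 25 KO libraries and not at the earlier days.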

How the data were processed

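RNA was measured in WT and *Dnmt1* KO ESCs. The authors trimmed 100 bp paired reads with Trim Galore 0.3.5, aligned them to NCBIM37 with TopHat2 2.0.11, discarded poorly mapped reads and quantified genes in SeqMonk. The deposited values are linear RPKM, whereas the methods name log2 RPM, and the strand setting is not given in the sources used here. Values were transformed to log2(RPKM + 0.1) and centred on 6034 genes. Genes above 1 RPKM in at least 2 of the 12 libraries of days 11, 17 and 25 (11458) were tested with limma 3.58.1 in R 4.3.3, with 6 residual degrees of freedom. Whole reads were recovered from the RPKM steps (at least 99.9% of low values were whole within 0.1) and used for TMM scaling and voom alternatives. Genes named were the 15 largest rises and falls with at least 5 RPKM, the 10 largest RPKM changes in each direction, and members of gene lists, some of which are not reported here. The samples, lists and tests were chosen with earlier results of these data known. The scripts were tested on simulated data. Samples from other days and the Dicer KO were not described.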

Additional observations from a re-analysis of the deposited data

Results flagged for a closer look

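The KO minus WT difference at day 25 was set against the mean of the same difference at days 11 and 17, as an interaction in the limma fit. It was higher at day 25 in 534 genes and lower in 1355. Both genotypes of day 25 enter this value, so a change in WT and a change in KO contribute alike. In the same fit, WT day 25 against WT days 11 and 17 had 1000 genes higher and 554 lower. KO day 25 against its own earlier days had 128 and 360. What caused either change was not tested.

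Among the named genes with a higher difference at day 25, the change of the log2 difference is given in parentheses. They were *Rtl1* (1.07), *Xlr4a* (1.15), *Rhox13* (1.81), *Dazl* (3.06), *Piwil2* (1.09), *Tex19.1* (1.31), *Tex12* (1.99), *Smc1b* (1.06), *Tex15* (2.59), *Rpl39l* (1.07), *Fmr1nb* (2.64), *Usp26* (1.37), *Efhc2* (1.91), *Nanog* (1.43), *Fbxo15* (1.11), *Prdm14* (1.18), *Tcl1* (1.87), *Fdps* (1.48), *Sc4mol* (1.77), *Insig1* (1.70), *Cyp51* (1.18), *Ifitm2* (1.28), *mt-Nd3* (1.78), *mt-Co1* (1.08), *mt-Co3* (1.396), *Cox4i1* (1.03), *Rpl7* (1.34), *Rps7* (1.33), *Calm2* (2.05), *Fabp3* (1.31) and *Tubb3* (1.03).

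Among those with a lower difference at day 25, the changes were those of *Dnmt3b* (-1.10), *Tet3* (-2.45), *H19* (-1.01), *Igf2* (-2.00), *Grb10* (-1.28), *Cdkn1c* (-1.09), *Peg10* (-2.69), *Gab1* (-2.65), *Rhox6* (-1.03), *Zscan4d* (-1.63), *Sall4* (-1.89), *Tcf7l1* (-2.89), *Spred2* (-1.84), *Myc* (-2.21), *Egr1* (-2.07), *Smad3* (-2.01), *Smad7* (-1.17), *Arid1a* (-2.86), *Prrc2a* (-2.91), *Prrc2b* (-2.69), *Srrm2* (-2.66), *Zfp609* (-3.39), *Trrap* (-2.88) and *Ubr4* (-3.07). The others were *Ptprf* (-3.29), *Hspg2* (-3.59), *Ahdc1* (-2.89), *Zyx* (-2.72), *Wbp7* (-2.78), *Pom121* (-2.66), *Malat1* (-1.70), *Pabpc1* (-1.55), *Pcbp2* (-1.54), *Igf2bp1* (-1.75), *Slc38a2* (-1.06), *Ddx21* (-1.27), *Pim1* (-1.21), *Eif2c2* (-2.39), *Drosha* (-1.56), *Tnrc6b* (-1.07), *Adar* (-1.32), *Zmat3* (-2.34), *Mdm2* (-1.77), *Sesn2* (-1.56), *Dsp* (-3.42), *Itga3* (-1.90), *Thbs1* (-4.02), *Nes* (-1.21), *Krt8* (-2.17) and *Krt18* (-1.74).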

How the results depend on the processing

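Of 125 named genes, all kept their direction and call with TMM scaling, voom, the 4 day 25 libraries alone, a pseudocount of 0.01 and no filter on low values. Fewer were unchanged elsewhere: 115 without centring and 113 with a pseudocount of 1. With the length and GC trend removed 99 were unchanged, 23 weaker, 1 stronger and 2 turned direction. With WT day 17 as control 51 were unchanged, 57 weaker, 1 stronger and 16 turned direction. Calls at day 25 numbered 243 higher and 549 lower with a pseudocount of 1, 200 and 267 with a stricter filter, 2948 and 2979 with no minimum fold, and 843 higher with no filter. With WT day 17 as control 200 were lower. For the change of the difference since days 11 and 17, the counts were 250 higher and 743 lower with a pseudocount of 1, 282 and 353 with the stricter filter, 2578 and 2890 with no minimum fold, and 929 higher when centred on all tested genes. In WT against its earlier days they were 454 and 255, 265 and 257, and 3448 and 3421 under the first 3 of these. In KO they were 42 and 117, 21 and 78, and 1732 and 2050, and 244 and 625 with no filter. Leaving out 1 library gave between 515 and 568 genes higher and between 877 and 1049 lower. Over all tested genes the lowest and highest autosome medians were -0.093 and 0.43, and the X median 0.15. The cause of these moves was not tested, beyond the genes and folds each setting admits.

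With WT day 17 as control the direction turned for *Mael* (-0.18), *Ddx4* (0.38), *Dppa3* (-0.26), *Pou5f1* (-0.20), *Sall4* (0.10), *Fdps* (-0.090), *Ifitm1* (-1.17), *Ifitm2* (-0.051), *mt-Nd3* (-0.10), *Rps7* (-0.17), *Mdm2* (0.21), *Dsp* (0.079), *Itga3* (0.66), *Thbs1* (0.0088), *Nes* (0.37) and *Krt18* (-0.99). It turned for *Mael* (-0.33) and *Krt18* (-0.040) once the length and GC trend was removed, for *Mael* in 1 of the fits without 1 replicate (from -0.14 without KO replicate 2 to 0.16 without KO replicate 1), and for *Krt8* without centring (0.0095) and with centring on all tested genes (0.015). The replicate numbers do not pair the samples (correlation of deviations 0.28, -0.17 and 0.05 at days 11, 17 and 25). With the replicate block 545 genes were higher and 1059 lower, and no named call changed.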
